A study of Homo sapiens with 24 samples.

Results

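The SP and KLF genes encode related transcription factors, and 10 of them were examined here in cells that expressed 1 of 7 microRNAs (miRNAs): SP1, SP2, SP3, SP4, KLF3, KLF6, KLF10, KLF13, KLF15 and KLF16. They were taken by gene symbol from the 29794 genes of the exon count tables. The rule was a list of symbols with no threshold on a measured value, but the list was made with earlier results of these data known. Of these, KLF15, KLF3 and SP3 were named by the study from these samples as factors that respond to miR-1 or miR-133a, so their values below are not independent evidence of a response. All 10 passed the filter on low counts in both batches.

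The 24 RNA-seq libraries came from derivatives of 1 line, Flp-In T-REx 293, which descends from the human embryonic kidney line HEK293. Each line carried a lentiviral GFP gene switched on by doxycycline, with a synthetic miRNA hairpin in its intron or, in the empty vector lines, no hairpin. All lines, empty vector included, were selected in Geneticin at 1 mg/mL for 6 days and received doxycycline at 1 µg/mL for 7 days. Batch 1 held miR-1, miR-122 and an empty vector group, with 2 separately transduced replicates each. Batch 2 held miR-155, miR-133a, the family of miR-373, miR-372 and miR-302a, and an empty vector group of its own, with 3 each. Each miRNA was thus expressed in a single cell line, and its mature level was not measured in these libraries.

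The SP and KLF proteins share a zinc finger domain at their C-terminal end and bind GC-rich promoter elements, the GC box and the related CACCC box. SP1 and SP3 are found in most cells and compete for the same boxes, with SP1 mostly activating and SP3 activating or repressing. The KLF proteins divide into groups by the cofactors they recruit: KLF3 binds the corepressor CtBP, KLF10, KLF13 and KLF16 bind SIN3A, and KLF6 and KLF15 are mostly known as activators. A miRNA lowers an mRNA chiefly by pairing of its seed, bases 2 to 8, with the 3'UTR.

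The mature miRNAs are printed with the seed in capitals, since the seed decides which of the 10 transcripts each could pair with (RefSeq, GRCh38.p14). miR-302a shares its seed with miR-372 and miR-373 (the shared-seed lines), and those of miR-1 and miR-122 are alike but not identical.
miR-1: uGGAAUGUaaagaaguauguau
miR-122: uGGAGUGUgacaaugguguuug
miR-133a: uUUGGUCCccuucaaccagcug
miR-155: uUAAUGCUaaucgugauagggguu
miR-302a: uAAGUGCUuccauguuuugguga
miR-372: aAAGUGCUgcgacauuugagcgu
miR-373: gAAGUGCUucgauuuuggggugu

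The longest annotated 3'UTR of each gene (GENCODE v44 on GRCh37) was searched for an 8mer, which pairs with the whole seed and has A opposite base 1, and for the 2 kinds of 7mer, the 7mer-m8 without that A and the 7mer-A1 without base 8. In all, 5 8mers were found, in 4 genes. They are printed with 8 flanking bases on either side, on the transcript strand, with the match in capitals.
SP3, miR-133a: ctattggaGGACCAAAaaaataag
KLF13, miR-1: aggaattcACATTCCAggttcagg
SP2, miR-1: cctccagcACATTCCAgctctatt
SP1, miR-155: agccatgaAGCATTAAaatgcatg
KLF13, shared seed: ccaaagagAGCACTTAatttaatt
The SP3 8mer lies at chr2:174773861-174773868 on the minus strand, 801 bases into a 3'UTR of 9166 bases, and was present in all 4 annotated coding transcripts with a 3'UTR. The KLF13 8mer for miR-1 lies at chr15:31666789-31666796 on the plus strand, 2287 bases into a 3'UTR of 5600 bases, and the one for the shared seed lies at chr15:31667101-31667108. Both are in 1 of the 2 KLF13 3'UTRs, since the other ends after 144 bases. The SP2 8mer lies at chr17:46005712-46005719 and the SP1 8mer at chr12:53805122-53805129, both on the plus strand, and the latter is 98 bases past the stop codon.

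Other matches were 7mers. KLF13 held 2 more 7mer-m8 matches to miR-1, and SP1 held 1. SP3 held 3 7mer-m8 matches to miR-155, and KLF3 held 3 7mer-A1 matches to it. The SP3 match at base 554 was in 4 of 4 transcripts, but those at bases 5194 and 6256 were in 1 of 4. The exon length counted for SP3, 6695 bases, is shorter than the 3'UTR searched. The KLF3 matches were in 1 of 2 transcripts. SP1 held 2 7mer-A1 matches to miR-133a. For the shared seed, 2 7mers were found in SP3 and 1 each in KLF3 and KLF6. SP4, KLF10, KLF15 and KLF16 held no match to any of the 7 miRNAs in the longest 3'UTR. Of the 10 genes, 3 had a match to miR-1 where 24.1% of all tested genes with a 3'UTR did, 5 had one to miR-122 (25.7%), 2 to miR-133a (17.2%), 3 to miR-155 (19.2%) and 4 to the shared seed (30.1%). Over all annotated 3'UTRs of each gene, 4 of the 10 had a match to miR-1 (26.2% of all tested genes), and the counts for the other seeds were unchanged. A gene classed below as without a match to miR-1 thus held one in another annotated 3'UTR. A match is a description of letters and was not tested for pairing.

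**Figure D1:**
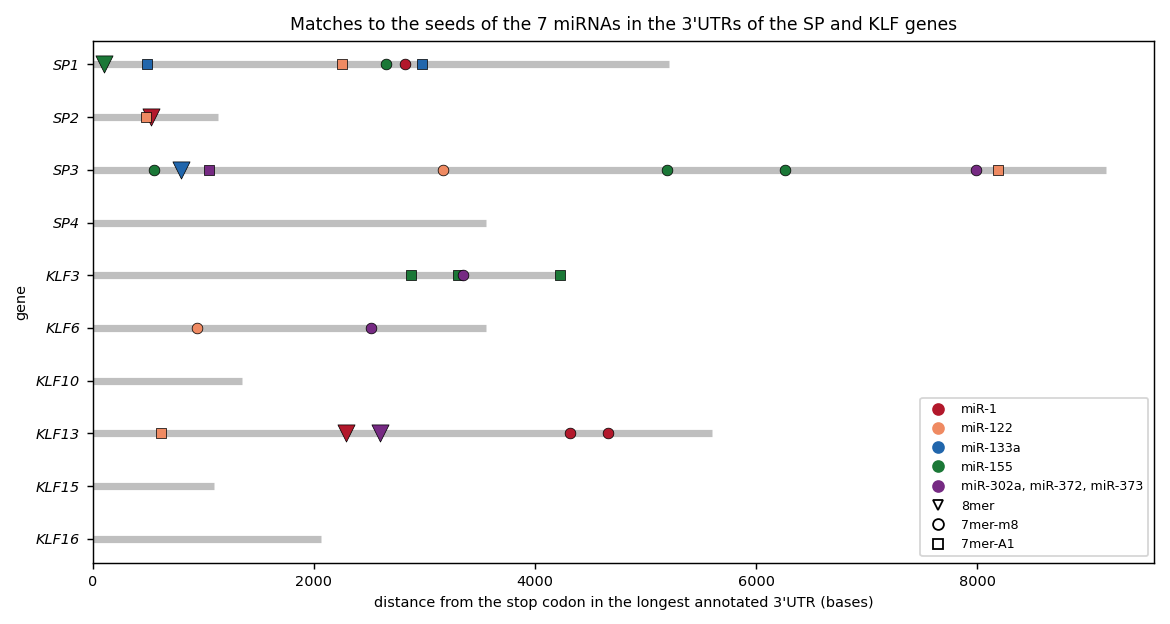
Map of the longest annotated 3'UTR of each of the 10 genes (grey bars), with distance from the stop codon in bases on the x axis and matches to each seed as coloured marks (triangle, 8mer; circle, 7mer-m8; square, 7mer-A1). SP3 has the longest 3'UTR, 9166 bases, and no mark lies in SP4, KLF10, KLF15 or KLF16.

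Exon counts summed to 20153452 to 21595191 reads per library in batch 1 and 13047400 to 35040778 in batch 2, and the least counted of the 10 genes still had 216 reads in a library. The line and the labels were checked first. Of 6 HEK293 markers fixed for this, 5 were in the tables and all 5 were above 1 CPM (the read count scaled to library size), as were TNNT1 of 6 muscle markers and COL1A1 and COL3A1 of 5 fibroblast markers, while summed markers of liver, blood and pluripotent cells stayed at or below 1.82 CPM in every library. A known target of each miRNA was lower in its line: TWF1 with miR-1 (log2 fold change -1.99), ALDOA with miR-122 (-0.47), TAGLN2 with miR-133a (-1.95), BACH1 with miR-155 (-1.11) and LATS2 in the shared-seed lines (-0.85 with miR-302a, -1.08 with miR-372 and -0.80 with miR-373), all called at an edgeR adjusted p under 0.05. TWF1 was also called lower with miR-155 (-0.90), miR-302a (-0.46), miR-372 (-0.53) and miR-373 (-0.44). TAGLN2 was also called lower with miR-1 (-1.11), and higher with miR-122 (0.21) and miR-155 (0.31). Neither was thus specific to its line. In miR-155 replicate 2 and miR-372 replicate 2 long genes were low: the slope of log2 CPM, relative to the batch mean, on log2 exon length was -0.099 and -0.097, against -0.039 to 0.078 in the other libraries of batch 2. SP1 and KLF13 have the longest exon totals of the 10 genes, 8083 and 7281 bases, so that slope is given beside their values.

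Per exon length, SP1 was the most abundant of the 10 transcripts in empty vector cells, at 22.5 ± 0.670 CPM per kilobase of exon (RPKM; mean ± SD, n = 2) in batch 1 and 20.8 ± 1.94 (n = 3) in batch 2. KLF16 came next, at 16.0 ± 1.51 and 17.8 ± 0.775 RPKM, then SP3 at 11.4 ± 0.170 and 10.4 ± 0.788. KLF15, SP2 and KLF3 formed a middle group between 8.21 and 9.30 RPKM, and the libraries of SP2 and KLF3 overlapped in both batches. KLF15 stood above both in batch 1 but overlapped with KLF3 in batch 2. KLF6 (7.06 and 7.01 RPKM), KLF13 (5.73 and 5.37), KLF10 (5.09 and 4.84) and SP4 (3.39 and 3.55), the member known chiefly from neurons, followed in that order in both batches without overlap of neighbours. The 4 SP genes together gave 45.6 to 45.8 RPKM and the 6 KLF genes 50.4 to 52.4 RPKM in the empty vector libraries of batch 1. The SP sum was 45.4 and 44.5 RPKM with miR-1 and 43.5 and 44.3 with miR-122, all below that control. The KLF sum was 54.0 and 53.8 RPKM with miR-1, above the control, and 54.0 and 52.3 with miR-122, overlapping with it. In batch 2 the SP sum was 41.3 to 45.6 RPKM in the empty vector libraries. It was 34.9 to 38.0 with miR-133a and 35.4 to 40.5 with miR-155, both without overlap with the control. SP1 is part of this sum, and its fall in these lines shrank with the exon length slope as a covariate (below). The part of that slope in the sums was not tested. The KLF sum was 51.6 to 53.8 RPKM in the empty vector, and was above that range in all libraries with miR-133a (55.8 to 57.7) and in the shared-seed lines (54.9 to 62.9).

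**Figure D2:**
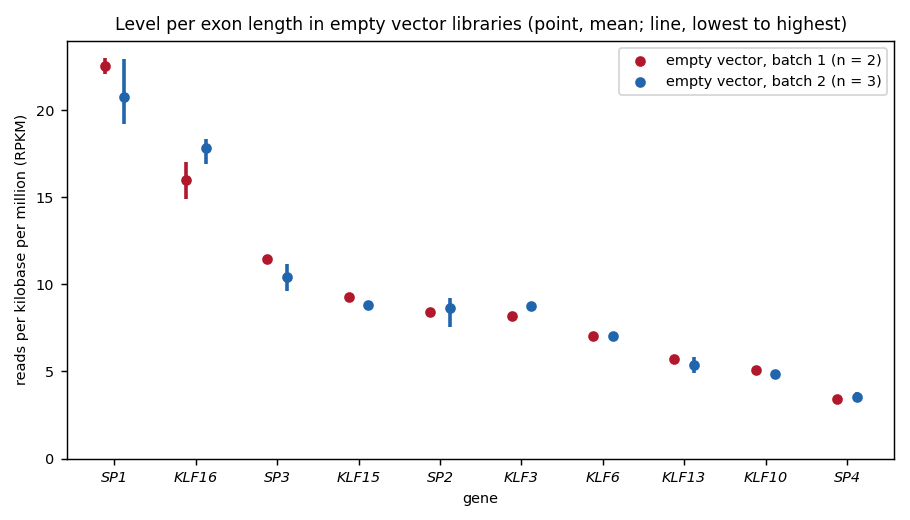
Level per exon length (RPKM, y axis) of each gene in the empty vector libraries of batch 1 (n = 2) and batch 2 (n = 3); points are means and lines run from the lowest to the highest library. SP1 and KLF16 lead in both batches and SP4 is lowest.

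The first question was which of the factors changed when each miRNA was expressed. With miR-1, KLF13 fell, while KLF16, KLF10 and KLF6 rose, so that 4 of the 10 genes passed an adjusted p of 0.05 in edgeR's quasi-likelihood test. Over all genes tested, 24.5% passed in that comparison, 13.7% lower and 10.8% higher. With miR-122, 0 of 10 passed (5.92% of all genes) by edgeR and 0 by DESeq2, and 4 had an unadjusted p under 0.05 (19.7%). Passing genes numbered 2 with miR-133a (5.34%), 1 with miR-155 (7.63%), 2 with miR-302a (7.88%), 2 with miR-372 (11.4%) and 1 with miR-373 (5.13%). Libraries of the line and its control did not overlap for 6 of 10 genes with miR-1 (61.3% of all genes), 5 with miR-122 (47.6%), 5 with miR-133a (35.4%), 6 with miR-155 (30.8%), 4 with miR-302a (29.5%), 3 with miR-372 (30.1%) and 4 with miR-373 (27%). Counts among 10 genes are too few to set apart from these shares, and the named genes are read one at a time. In bulk RNA, fewer cells with a transcript and less of it per cell cannot be told apart.

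**Figure D3:**
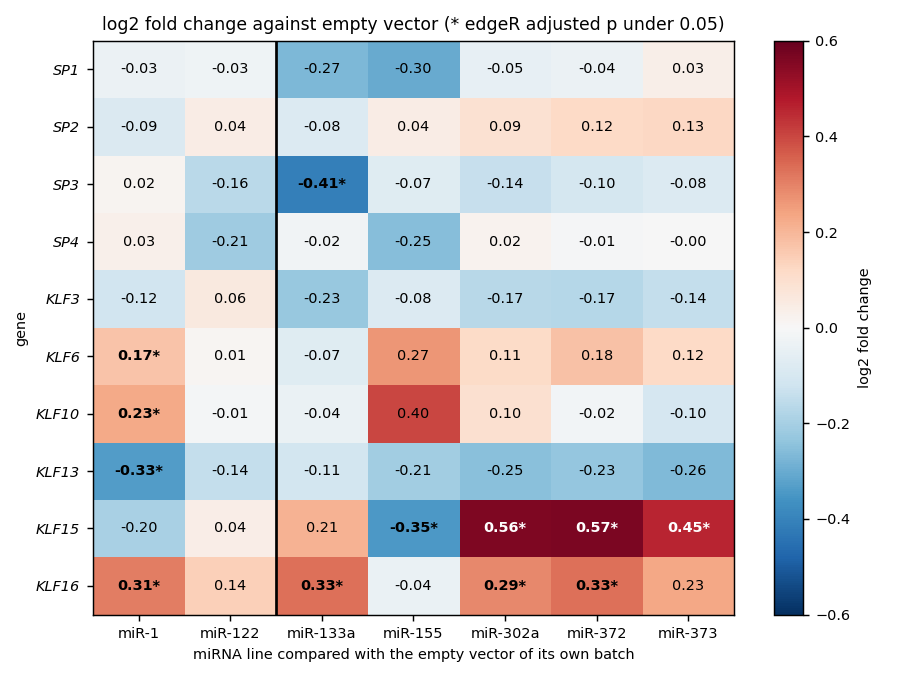
log2 fold change of each gene (rows) in each miRNA line (columns) against the empty vector of its batch, batch 1 left of the black line; bold values with an asterisk had an edgeR adjusted p under 0.05. KLF15 spans the widest range, from -0.35 with miR-155 to 0.57 with miR-372.

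KLF15, an activator known for glucocorticoid-responsive and circadian metabolic genes, showed the widest span of the 10. In batch 2 the empty vector libraries gave 23.0, 22.7 and 22.5 CPM. The miR-302a libraries gave 37.1, 31.1 and 32.3 CPM, those of miR-372 34.4, 31.9 and 34.5, and those of miR-373 33.1, 29.1 and 31.4. All 9 libraries with the shared seed were above every empty vector library. KLF15 rose by 0.56 ± 0.0821 (log2 fold change ± SE) with miR-302a, 0.57 ± 0.0816 with miR-372 and 0.45 ± 0.0815 with miR-373, with edgeR adjusted p of 0.000272, 0.000178 and 0.0022. For the 3 lines together the rise was 0.53 ± 0.0687, or 1.44-fold (edgeR adjusted p = 3.43e-05). These 3 comparisons share their empty vector libraries.

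With miR-155 KLF15 moved the other way. Its libraries gave 17.5, 18.4 and 17.8 CPM, all below the empty vector, and it fell by 0.35 ± 0.0853 on the log2 scale (0.787-fold, edgeR adjusted p = 0.0166). The adjusted p was 0.0589 without empty vector replicate 2 and 0.0587 without miR-155 replicate 1, with nearly the same fold change. In miR-133a cells KLF15 was at 26.6, 25.8 and 26.4 CPM, above all 3 control libraries, with a log2 fold change of 0.21 ± 0.0832 that did not pass (edgeR adjusted p = 0.16). Direct comparisons between lines, which use no control library, separated these groups: KLF15 was higher by 0.55 ± 0.0847 with miR-133a than with miR-155 (edgeR adjusted p = 0.000127), higher by 0.32 ± 0.0676 in the shared-seed lines than with miR-133a (edgeR adjusted p = 0.00201) and higher by 0.87 ± 0.0712, or 1.83-fold, than with miR-155 (edgeR adjusted p = 4.3e-08).

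The study links KLF15 with miR-1 through RNA-seq set against PRO-seq, which measures transcription, and through binding motifs in regulatory elements. It proposes that the effect is indirect. Total RNA alone, compared here, is another measure. With miR-1 the KLF15 libraries gave 21.3 and 20.5 CPM against 23.5 and 24.3 in the empty vector of batch 1. Both were lower, by 0.20 ± 0.0732 on the log2 scale, and the difference did not pass (edgeR adjusted p = 0.0566, DESeq2 0.288). It was lower than with miR-122 by 0.24 ± 0.0731 (edgeR adjusted p = 0.0186), a call that DESeq2 did not make (0.135). KLF15 (ENSG00000163884.3) lies at chr3:126061478-126076251 on the minus strand, and its single annotated 3'UTR of 1092 bases held no match to any of the 7 seeds, nor did its ORF or 5'UTR.

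SP3, the factor that shares GC boxes with SP1, was lower with miR-133a than in the control cells. The empty vector libraries gave 74.9, 64.4 and 69.6 CPM and the miR-133a libraries 53.1, 55.1 and 48.8, so the groups did not overlap. SP3 fell by 0.41 ± 0.0809 on the log2 scale, to 0.752-fold (edgeR adjusted p = 0.0039, DESeq2 0.000212), and passed in all 15 alternative fits, with log2 fold changes between -0.46 and -0.36. It was also lower with miR-133a than with miR-155, by 0.34 ± 0.081 (edgeR adjusted p = 0.00625), and higher in the shared-seed lines than with miR-133a, by 0.30 ± 0.0672 (edgeR adjusted p = 0.00288). Besides the 8mer, a 7mer-m8 to miR-133a was found in the SP3 ORF, at chr2:174783392-174783398. The log2 fold change of SP3 in the other 6 lines lay between -0.16 (miR-122, edgeR adjusted p = 0.0665) and 0.02 (miR-1), and none passed. With miR-155, to which SP3 holds 3 7mers in its longest 3'UTR, the libraries gave 68.9, 66.3 and 63.6 CPM, overlapping with the empty vector.

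KLF3, the CtBP-binding repressor, was low in the same line without passing the test. The study links KLF3 with miR-133a by the measures given above for KLF15 with miR-1, not by total RNA alone. The empty vector gave 51.8, 53.4 and 52.7 CPM and miR-133a 46.0, 43.8 and 44.8, with no overlap, and the log2 fold change was -0.23 ± 0.0679 (0.853-fold, edgeR adjusted p = 0.0543). DESeq2 called it (0.0292), and it passed in 6 of the 15 alternatives. KLF3 was also below every empty vector library in all 9 shared-seed libraries, which ranged from 43.3 to 49.3 CPM, with a joint log2 fold change of -0.16 ± 0.0546 (edgeR adjusted p = 0.0528). The difference of KLF3 between these lines and miR-133a was 0.07, with a 95% interval from -0.05 to 0.19. No match to the miR-133a seed was found in KLF3, and its annotated locus (chr4:38665818-38703138, plus strand) overlaps an antisense gene, KLF3-AS1, which strand-specific counting keeps apart.

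SP1, which activates many genes without a TATA box, held an 8mer and a 7mer for miR-155 and 2 7mers for miR-133a. With miR-155 its libraries gave 147.5, 110.6 and 151.1 CPM and with miR-133a 140.5, 125.6 and 152.4, against 155.3, 185.6 and 163.0 in the empty vector. All 6 were below the control range. The log2 fold changes were -0.30 ± 0.121 and -0.27 ± 0.121 and did not pass (edgeR adjusted p = 0.138 and 0.218). With miR-155, SP1 passed in 1 of 15 alternatives, the one with no filter (edgeR adjusted p = 0.0476). With miR-133a it passed in 2 of 15. These were the fit of only the groups compared (edgeR adjusted p = 0.025) and the fit without miR-155 replicate 2 and miR-372 replicate 2 (0.0457). The lowest SP1 values of each line, 110.6, 125.6 and, with miR-372, 136.5 CPM, came from the replicates 2 whose slopes on exon length were -0.099, -0.032 and -0.097, and with the slope as a covariate the log2 fold changes were -0.02 (miR-155) and -0.09 (miR-133a). With miR-372 the sign changed under that covariate (0.23 against -0.04), and without miR-155 replicate 2 and miR-372 replicate 2 the miR-155 value was -0.17.

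The ratio of SP3 to SP1 reads per base, which does not depend on library scaling, was 0.582, 0.419 and 0.515 in the empty vector libraries of batch 2 and 0.456, 0.530 and 0.387 with miR-133a. The log2 difference was -0.14 ± 0.191 (exact permutation test, two-sided, p = 0.50, adjusted over the 7 lines 0.778). SP3 fell with miR-133a while SP1 was also lower, and the ratio overlapped between the groups. With 3 against 3 libraries the exact permutation test cannot give a p under 0.10, and with 2 against 2 not under 0.333, so no line could pass. With miR-122 both libraries (0.455 and 0.469) were below both of the control (0.492 and 0.524), at that smallest p of 0.333 by the exact permutation test, and in the other 6 lines the libraries overlapped with the control.

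The remaining SP genes did not pass in any comparison with an empty vector. SP2, with an 8mer to miR-1, gave 26.1 and 23.0 CPM with miR-1 against 25.6 and 26.7, a log2 fold change of -0.09 with a 95% interval from -0.25 to 0.07. SP4 gave 18.6, 18.6 and 17.6 CPM with miR-155, below the 20.6, 23.5 and 21.2 of the empty vector, at a log2 fold change of -0.25 ± 0.115 (edgeR adjusted p = 0.184). With miR-122, SP4 gave 17.3 and 18.5 CPM against 20.4 and 21.2, at -0.21 ± 0.0791 (edgeR adjusted p = 0.127).

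KLF16 and KLF13, both SIN3A-binding, changed in opposite directions with miR-1. KLF13 gave 32.3 and 34.0 CPM against 42.7 and 40.8 in the empty vector, and fell by 0.33 ± 0.0601 on the log2 scale (0.794-fold, edgeR adjusted p = 0.000482). KLF16 gave 57.8 and 56.3 CPM against 43.1 and 49.2, and rose by 0.31 ± 0.0625 (1.24-fold, edgeR adjusted p = 0.00146). Both passed in all 11 alternatives, none of which held the exon length slope as a covariate. In batch 1 that slope was 0.029 and -0.005 in the empty vector libraries and -0.01 and 0.004 with miR-1. Its part in these 2 differences was not tested. For KLF16 the empty vector libraries themselves differed, and the log2 fold change ran from 0.21 to 0.41 as libraries were left out. In the longest 3'UTR, KLF13 holds the 8mer and 2 7mers for miR-1, and KLF16 holds none.

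In batch 2, KLF16 was above the control range of 48.9 to 53.0 CPM in every library with miR-133a (61.6, 69.4 and 63.2 CPM), miR-302a (61.9, 57.5 and 69.6), miR-372 (61.7, 71.8 and 61.3) and miR-373 (60.6, 59.5 and 61.1). It rose by 0.33 ± 0.0823 with miR-133a (edgeR adjusted p = 0.0214), 0.29 ± 0.0822 with miR-302a (0.0352) and 0.33 ± 0.0819 with miR-372 (0.0127), while 0.23 ± 0.0817 with miR-373 did not pass (0.12). These calls were less stable: leaving out 1 library at a time, KLF16 passed in 1 of 6 fits with miR-133a, 1 of 6 with miR-302a and 4 of 6 with miR-372. With the exon length slope as a covariate the calls with miR-302a (0.21, edgeR adjusted p = 0.1251) and miR-372 (0.24, edgeR adjusted p = 0.0654) were lost. With miR-155 its libraries gave 49.6, 49.4 and 51.3 CPM, within or next to the control range, and it was higher with miR-133a than with miR-155 by 0.37 ± 0.0824 (edgeR adjusted p = 0.00393) and in the shared-seed lines than with miR-155 by 0.32 ± 0.0683 (edgeR adjusted p = 0.00154), both in all alternatives run.

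KLF13 holds an 8mer for the shared seed, and with miR-302a, miR-372 and then miR-373 its log2 fold changes were -0.25 ± 0.0986, -0.23 ± 0.098 and -0.26 ± 0.0977, none of which passed alone (edgeR adjusted p = 0.128, 0.139 and 0.143). The 9 libraries ranged from 28.1 to 36.9 CPM and overlapped with the 35.9, 42.4 and 38.9 CPM of the empty vector. Taken as 1 contrast, KLF13 fell by 0.25 ± 0.0793 (edgeR adjusted p = 0.0403), 1 of 3 genes that passed there with KLF15 and KLF16, where 15.4% of all genes did and where the libraries of 3 genes, KLF3, KLF15 and KLF16, did not overlap with the control (16.4% of all genes). The KLF16 call there held in 20 of 21 alternatives and was lost without empty vector replicate 1. The KLF13 call held in 12 of 21 alternatives and was lost with the exon length slope as a covariate, under which the single values were -0.09, -0.07 and -0.18. The part of that slope in the KLF13 difference was not tested further. With miR-155, to which KLF13 holds no match, its libraries gave 35.2, 31.0 and 35.4 CPM, below every empty vector library. The log2 fold change there was -0.21 (edgeR adjusted p = 0.208) and ran from -0.26 to -0.02 over the alternatives. Between the shared-seed lines and miR-155 the KLF13 difference was -0.04 (edgeR adjusted p = 0.751), so the lower level was not particular to the lines with a match.

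KLF10, a TGF-beta-induced repressor, and KLF6, an activator studied as a growth suppressor, rose with miR-1 and were above the control range with miR-155. With miR-1, KLF6 gave 46.9 and 48.1 CPM against 41.8 and 42.6, a rise of 0.17 ± 0.0583 (edgeR adjusted p = 0.0372), and KLF10 gave 24.3 and 23.4 against 20.4 and 20.4, a rise of 0.23 ± 0.0739 (edgeR adjusted p = 0.0303). Neither passed in DESeq2 (0.181 and 0.188), and leaving out 1 of the 4 libraries at a time, KLF6 passed in 1 of 4 fits and KLF10 in 0 of 4. With miR-155, KLF10 gave 26.6, 24.7 and 25.4 CPM against 19.7, 19.0 and 19.4, with a log2 fold change of 0.40 ± 0.129 (edgeR adjusted p = 0.0655, DESeq2 0.0379). KLF6 gave 51.2, 48.0 and 51.8 CPM against 43.0, 42.5 and 40.2, with 0.27 ± 0.1 (edgeR adjusted p = 0.112). Between lines, KLF10 was lower with miR-133a than with miR-155 by 0.44 ± 0.13 (edgeR adjusted p = 0.0236) and lower in the shared-seed lines than with miR-155 by 0.41 ± 0.103 (edgeR adjusted p = 0.00617), and KLF6 was lower with miR-133a than with miR-155 by 0.34 ± 0.1 (edgeR adjusted p = 0.0248). KLF10 spread widely within the shared-seed lines, from 15.5 to 23.7 CPM. KLF6 holds an 8mer to miR-133a in its ORF, at chr10:3824311-3824318 on the minus strand, and with miR-133a it gave 40.0, 43.3 and 36.3 CPM, overlapping with the control.

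**Figure D4:**
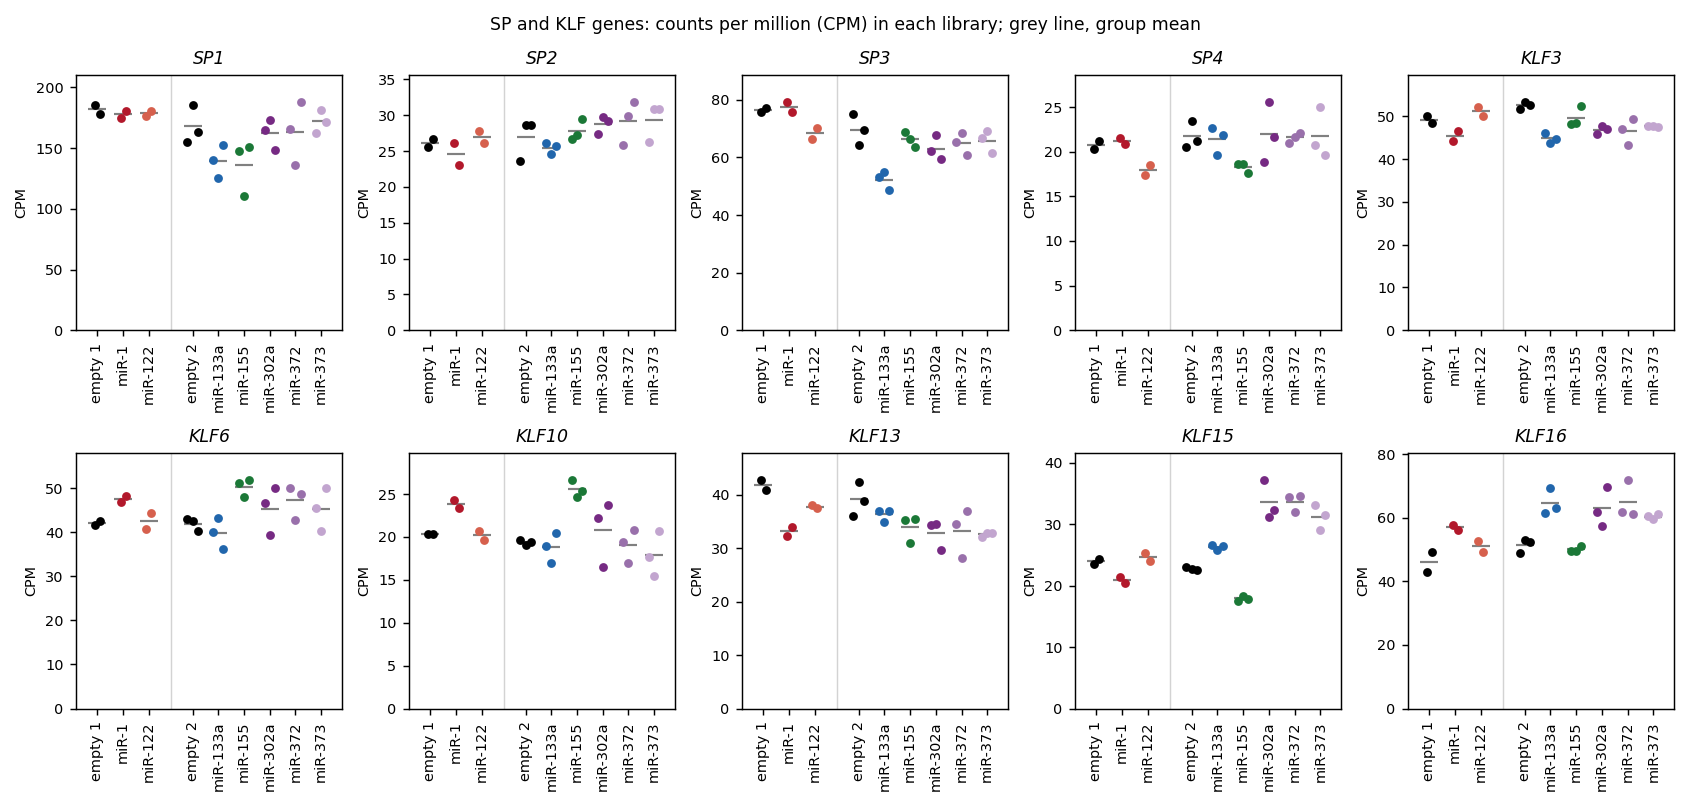
CPM (y axis, from 0) of each of the 10 genes in all 24 libraries, by group, with batch 1 left of the grey line; each point is a library and grey bars are group means. KLF15 separates the shared-seed lines (29.1 to 37.1 CPM) from miR-155 (17.5 to 18.4) and the empty vector of batch 2 (22.5 to 23.0), and SP3 is lowest with miR-133a.

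Direct comparisons were made because 2 lines measured against the same control libraries cannot be set against each other through them. With miR-1 against miR-122, 7 of the 10 genes passed in edgeR (31.2% of all genes), but 0 in DESeq2, and leaving out 1 library left 0 to 5. The differences were small, from -0.24 for KLF15 to 0.24 for SP4. miR-133a and miR-155 differed in 5 genes (16.7% of all genes), the shared-seed lines and miR-133a in 2 (20.5%; with the replicate block 3, SP2 going from an edgeR adjusted p of 0.103 to 0.044) and the shared-seed lines and miR-155 in 5 (27.1%). Within the shared-seed lines, 0 of the 10 genes differed in any of the 3 pairs by edgeR or by DESeq2, and 0 had an unadjusted p under 0.05. Over all 14054 genes 0% passed in these pairs, and 0.868%, 1.31% and 1.11% had an unadjusted p under 0.05. For KLF15 the difference was -0.01 between miR-302a and miR-372 (95% interval -0.17 to 0.16), 0.10 between miR-302a and miR-373 (-0.06 to 0.27) and 0.11 between miR-372 and miR-373 (-0.06 to 0.28). Differences of that size between lines with the same seed therefore could not be seen here.

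Put together by seed match in the longest 3'UTR, the 10 genes and 7 lines made 70 pairs. In 7 pairs the gene held an 8mer for the miRNA expressed, and all 7 log2 fold changes were below 0, from -0.41 to -0.09 with a median of -0.26, of which 2 were called lower. Of the 7, 3 are KLF13 with the same 8mer and the same control libraries. With the exon length slope as a covariate these 3 were nearer 0, at -0.09 (miR-302a), -0.07 (miR-372) and -0.18 (miR-373). SP1 with miR-155, also among the 7, was then at -0.02. The range and median above are without that covariate. In the 18 pairs with a 7mer only, 13 were below 0 and 0 were called, with a median of -0.08. Of all tested genes with a 7mer only, 57% (miR-373) to 68.5% (miR-155) were below 0 and 4.99% (miR-373) to 23.3% (miR-1) were called lower. In the 45 pairs with no match, 20 were below 0, 1 was called lower and 9 higher, with a median of 0.03. Matches in the ORF or 5'UTR were not counted. The 45 thus hold KLF6 with miR-133a and KLF10 in the shared-seed lines, each with an 8mer in the ORF. Of all tested genes without a match, 1.57% (miR-133a) to 12.3% (miR-1) were called higher. Over all tested genes with a 3'UTR, between 71.2% (miR-1) and 80.8% (miR-133a) of those with an 8mer for the miRNA of the line were below 0 and 18.9% (miR-373) to 36.2% (miR-1) were called lower, against 43.2% to 46.3% below 0 among those without a match. The order of the 3 classes was thus that of the whole table. The lowest 8mer pair, SP3 with miR-133a, was named by the study as a direct target from these samples. The class order among the 10 genes is therefore not independent evidence. The 9 called rises were all KLF6, KLF10, KLF15 or KLF16 without a match. They were KLF6 and KLF10 with miR-1, KLF15 in all shared-seed lines, and KLF16 with miR-1, miR-133a, miR-302a and miR-372. Rises in the same batch share their control libraries, so the 9 are not independent and cannot be set against the share over all genes.

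**Figure D5:**
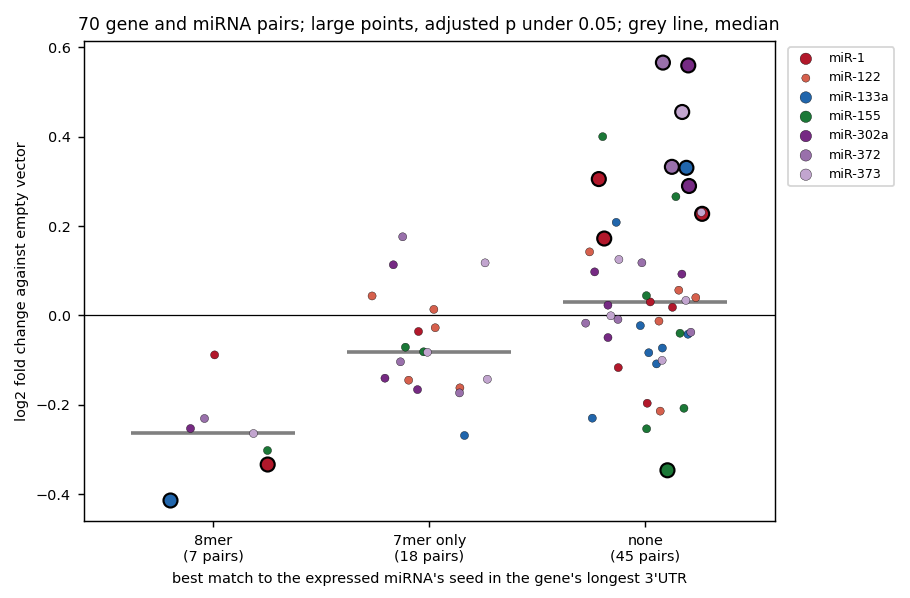
log2 fold change against empty vector (y axis) of the 70 pairs of gene and miRNA line by the best match in the longest 3'UTR (x axis), coloured by miRNA; large outlined points had an edgeR adjusted p under 0.05 and grey bars are medians. All 7 pairs with an 8mer lie below 0, and the 9 called rises lie among the 45 pairs without a match. Values are without the exon length slope as a covariate.

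Promoters were examined because SP and KLF proteins bind GC boxes, in promoters of their own family among others. In RefSeq promoters of 250 bases before to 50 after a start (GRCh38.p14), 8 of the 10 genes had an entry, with 11 starts. KLF3 and KLF10 had no entry and were not searched. The GC box (GGGCGG or, on the other strand, CCGCCC) was present in all 11, from 1 in a SP3 promoter to 10 in a SP1 promoter, against 45.0% of all 35116 promoters with at least 1. KLF15 held 6 and KLF16 held 7. The CACCC box (CACCC or GGGTG) was present in the 3 SP3 promoters and in those of SP4 and KLF13, and in 59.9% of all promoters. Starts of the same gene were counted separately. Both shares were over all promoters, whether or not the gene was expressed in these cells, and a share over expressed genes was not computed.

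The rest of the family, 17 genes of which 11 could be tested, had 0 to 3 genes called in a line, where 5.13% to 24.5% of all genes were. SP6 was highest, at 7.50 CPM with miR-372 against 4.48 (log2 fold change 0.75 ± 0.16, edgeR adjusted p = 0.00519). SP9 was lowest, at 7.67 against 11.7 CPM with miR-372 (-0.63 ± 0.158, edgeR adjusted p = 0.0148). KLF4, one of the reprogramming factors, was lower with miR-1 (-0.47 ± 0.129, edgeR adjusted p = 0.0122) and higher with miR-372 (0.38 ± 0.118, edgeR adjusted p = 0.0444).

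Of 15 cofactors and modifiers of SP and KLF proteins, 1 to 3 were called in a line, against the same shares of 5.13% to 24.5% of all genes. The corepressor SIN3A rose with miR-1 (0.24 ± 0.0417, edgeR adjusted p = 0.000337) and fell with miR-155 (-0.37 ± 0.0954, edgeR adjusted p = 0.0213), and the deacetylase HDAC1 rose with miR-1 (0.17 ± 0.0415, edgeR adjusted p = 0.00494). The acetyltransferase KAT2B gave the lowest value, 38.0 CPM with miR-372 against 51.1 (-0.43 ± 0.0804, edgeR adjusted p = 0.00189). The counts were 3 higher and 0 lower with miR-1 and 2 lower and 0 higher with miR-122, miR-155 and miR-302a, and the list medians lay between -0.06 and 0.03 against 0.00 to 0.01 over all genes.

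Of 18 textbook genes with GC boxes, 7 were called with miR-1 (2 lower, 5 higher; 24.5% of all genes) and 0 with miR-133a (5.34% of all genes), the lowest count among the lines. With miR-133a their median log2 fold change was -0.02 against 0.00 over all genes. EGFR and the cyclin gene CCND1 had the lowest values, both with miR-155: EGFR at 12.2 CPM against 29.2 (-1.25 ± 0.223, edgeR adjusted p = 0.00144) and CCND1 at 88.7 against 150.3 (-0.76 ± 0.0888, edgeR adjusted p = 1.73e-05). TERT, the telomerase subunit, was highest, at 8.65 CPM with miR-373 against 4.14 (1.09 ± 0.237, edgeR adjusted p = 0.00988), followed by LGALS3 with miR-155 (0.59 ± 0.114, edgeR adjusted p = 0.00269).

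The genes with the most similar pattern over the 7 log2 fold changes were found by Euclidean distance among 10607 genes. For SP3 they were FAF2 (distance 0.115) and DENND4C (0.146), for KLF3 CREBZF (0.0807), and for KLF15 TOP1MT (0.216) and ZNF853 (0.237). TOP1MT gave 0.54 with miR-302a, 0.53 with miR-372, 0.41 with miR-373 and -0.32 with miR-155.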

How the data were processed

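The labels gave the groups and the replicate numbers. Per the study's methods, the authors made polyA-selected, strand-specific libraries from 1000 ng of RNA, aligned reads to hg19 (TopHat2 2.1.1, per the submitters' notes) and counted them over exons by strand with featureCounts. The deposited values are raw counts per gene, with a column of exon length in bases. Tables of the authors' own comparisons (log2 fold changes, mean log2 CPM, likelihood ratios, p-values, FDR and q-values, from edgeR 3.24.3) were not used.

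The members and gene lists were chosen with earlier results of these data known. Of 29794 genes, 28543 had a symbol. In R 4.3.3, edgeR 4.0.16 was run per batch: filterByExpr (minimum count 10; 14348 and 14054 genes), TMM, quasi-likelihood fit of all groups, Benjamini-Hochberg over all genes, threshold 0.05, prior count 0.125, SE as log2 fold change over the root of F. CPM are TMM-scaled, RPKM divide by exon length. The functions were tested on simulated data. DESeq2 1.42.0 and the other alternatives are in the closing section.

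The GTF was GENCODE v44 mapped to GRCh37, on which hg19 is based, and coordinates are 1-based. Replicates were transduced separately, and all pairs differed by more than sampling noise (chi-square per degree of freedom 1.81 to 35.3), so all were kept. Numbers were taken to pair libraries where every same-numbered correlation of deviations from group means was over 0.1. Pairing itself was not given by the labels, and the main fits held no replicate block. The low exon length slopes shared by miR-155 replicate 2 (-0.099) and miR-372 replicate 2 (-0.097) may enter these correlations, which was not tested. The rule of 0.1 was met by some pairs of lines. These were miR-133a with miR-155 (0.227 to 0.414) and miR-372 (0.194 to 0.355), miR-155 with miR-302a (0.115 to 0.194) and miR-372 (0.311 to 0.681), and miR-302a with miR-372 (0.161 to 0.334). It was not met by miR-133a with miR-302a (-0.108 to -0.0121) or any pair with miR-373 or an empty vector. Named were all 10 members, of each list at most the 2 lowest and 2 highest genes called, a known target per miRNA, and the 2 nearest genes by pattern (mean log2 CPM of at least 3) for SP3, KLF3 and KLF15, of which 1 is not reported here.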

Additional observations from a re-analysis of the deposited data

Results flagged for a closer look

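Members were set apart where the effects of 2 miRNA lines of a batch differed by edgeR's direct test (adjusted p under 0.05). With miR-1 against miR-122, where 31.2% of all genes passed, the log2 differences were 0.18 for SP3, 0.24 for SP4, -0.17 for KLF3, 0.16 for KLF6, 0.24 for KLF10, -0.19 for KLF13 and -0.24 for KLF15, and DESeq2 called 0 of these 7. With miR-133a against miR-155 they were -0.34 for SP3, -0.34 for KLF6, -0.44 for KLF10, 0.55 for KLF15 and 0.37 for KLF16, and DESeq2 called all 5. Between the mean of the shared-seed lines (miR-302a with miR-372 and miR-373) and miR-133a they were 0.30 for SP3 and 0.32 for KLF15. Between that mean and miR-155 they were 0.28 for SP1, 0.26 for SP4, -0.41 for KLF10, 0.87 for KLF15 and 0.32 for KLF16.

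Leaving out 1 library, the exon length slope and the other alternatives left the calls of KLF15, KLF16 and SP3 between miR-133a and miR-155 in 15 of 15 fits, and those of KLF10, KLF15 and KLF16 between the shared-seed lines and miR-155 in 21 of 21. SP1 passed there in 11 of 21 and SP4 in 7 of 21, and the SP1 call was lost on leaving out any 1 of 8 libraries, 2 of miR-155 and 6 of the shared-seed lines. Dixon's rule needs at least 4 libraries in a group and was not applied.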

How the results depend on the processing

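Calls rest on 2 or 3 libraries a group and at least 216 reads per member and library, which limits what could be called. Leaving out each library in turn, the members called ranged from 2 to 3 with miR-1 (4 in all libraries), 0 to 1 with miR-122, 1 to 2 with miR-133a, 0 to 1 with miR-155, 1 to 2 with miR-302a, 1 to 2 with miR-372, 0 to 5 for miR-1 against miR-122, 3 to 5 for miR-133a against miR-155, 2 to 4 for the shared-seed lines against miR-133a and 3 to 4 against miR-155. DESeq2's Wald test called 2 with miR-1, 2 with miR-155 and 0 for miR-1 against miR-122. The edgeR likelihood ratio test called 1 with miR-122 and 2 with miR-155, and no filter gave 2 with miR-155 and 1 with miR-302a. Fitting only the groups compared gave 4 with miR-133a (2349 of all genes called, against 750), 1 with miR-302a (1027 against 1107), 1 with miR-372 (811 against 1599) and 3 for the shared-seed lines against miR-155 (2950 against 3806). The next pair of alternatives was chosen after seeing the data and was run in batch 2 only. Without miR-155 replicate 2 and miR-372 replicate 2, 4 were called with miR-133a (1680 of all genes), 2 with miR-373 (1194 against 721), 4 for the shared-seed lines against miR-133a (3950 against 2875) and 3 against miR-155 (3433 against 3806). With the exon length slope as a covariate, 1 was called with miR-302a, and SP1 with miR-372 went from -0.04 to 0.23 (edgeR adjusted p = 0.0314). The cause was not tested. With the 8mer alone, 0 members had a match to miR-122, and 1 each to miR-133a, miR-155 and the shared seed.

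With the replicate block, 2 members were called with miR-155 (KLF10 with KLF15, log2 fold change of KLF10 0.40) and 3 with miR-1, without KLF6. With miR-133a 3 were called, KLF3 included. Same-numbered libraries of a miRNA line and its empty vector correlated at -0.245 to 0.291, so these numbers were not taken as pairs, and 1 to 5 of 6 libraries in batch 2 correlated best with their own number.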
